A study of Carica papaya with 12 samples.

Results

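Hermaphrodite flower buds of papaya (Carica papaya) were compared with female flower buds in the smaller of 2 size classes, 1–6 mm, which the labels call pre-meiosis. The 4 libraries compared, of 12 in the series, were chosen by their labels: 2 of hermaphrodite 'SunUp' buds and 2 of female 'AU9' buds. No measured value entered the choice, and all 19339 genes that passed the count filter, of 27689 in the files, were compared. The plants were grown at 1 research station without treatment, and whole buds were extracted. 'SunUp' is a commercial variety and 'AU9' a breeding material, and the part of the sex and that of the cultivar cannot be told apart here. The larger hermaphrodite and female buds (7–12 mm, labelled post-meiosis) and the male 'AU9' buds of both sizes, 2 libraries each, are used only beside it. The first replicates were read single-end and the second ones paired-end on another instrument, so the replicate number is also a platform. The hermaphrodite libraries held 14859199 and 4520811 counts (replicates 1 and 2), and the female libraries 15201578 and 8554135. The small hermaphrodite library also had the highest share of unaligned reads in the study's alignment summary. Results that change without it are given below with that value. A fit without 1 library leaves its group on 1 platform, so library and platform cannot be told apart in such fits. The ratio of the second to the first hermaphrodite library lay more than 4-fold from the median ratio of the other 5 groups for 131 genes, 45 above and 86 below it, where the other groups had 82 to 232 such genes. Of the 131 genes 5 were called, where 11.7% of all tested genes were. Genes whose 2 hermaphrodite libraries lie apart are less readily called, so this count says little about the small library. None of the 131 is in the study's tables. One of the 131, evm.model.supercontig_2112.2, was named after its values were seen and was not called. It had 2538 and 122728 counts in hermaphrodite buds, 6615 and 45234 in male buds, and 5988 and 3021 in female buds.

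Papaya plants are female, male or hermaphrodite. Female flowers form a functional ovary and no functional stamens, male flowers form stamens and a rudimentary pistil, and hermaphrodite flowers form both. In Arabidopsis, petals and stamens are specified by MADS-box proteins of the B class (PI and AP3) acting with SEP proteins. Within the young stamen, SPL/NZZ starts the sporogenous tissue that gives pollen mother cells. The tapetum, the inner layer of the anther wall that feeds the developing pollen, then depends on a chain of transcription factors in which DYT1, TDF1, AMS and MS1 act in that order. Because whole buds were extracted, fewer cells of a type and less RNA per cell cannot be told apart in any of the results.

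Values are given as CPM, the counts of a gene per 1e+06 counts of its library after TMM scaling, which evens out differences in composition. A gene is called where edgeR's quasi-likelihood test gave a Benjamini-Hochberg adjusted p under 0.05 and the difference was more than 2-fold, and only called genes are said to have risen or fallen in hermaphrodite buds. The error of a log2 fold change is the standard error (SE) implied by that test. With 2 libraries a group, exact permutations could reach no p under 0.333, and the tests borrow their spread from all 6 groups. In hermaphrodite buds 996 genes were higher, 5.15% of the tested genes, and 1261 were lower, 6.52%, which makes 2257 genes or 11.7%. By adjusted p alone 2276 genes were higher (11.8%) and 2538 lower (13.1%). Every called gene had no overlap between the groups, a state that 32.2% of all tested genes showed with hermaphrodite buds higher and 28.8% with hermaphrodite buds lower. The difference exceeded 2-fold in both replicates taken singly for 802 of the 996 higher genes and 1070 of the 1261 lower genes. The higher genes took 7.21 and 7.53% of the counts of tested genes in hermaphrodite libraries, against 1.94 and 1.94% in female libraries. For the lower genes these shares were 6.03 and 5.56% in hermaphrodite libraries and 18.5 and 17.4% in female libraries.

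**Figure D1:**
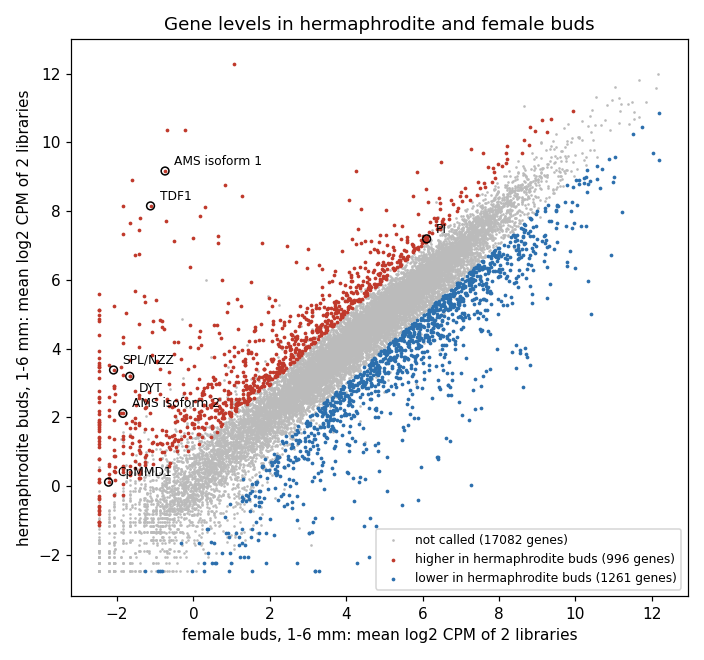
Mean log2 CPM of each tested gene in hermaphrodite buds (vertical axis) and female buds (horizontal axis) of 1–6 mm, 2 libraries each, with called genes in colour and 7 stamen and anther genes circled. AMS isoform 1 and TDF1 lie far above the diagonal, whereas PI lies at the edge of the called genes.

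More genes fell than rose, but with library totals as the only scaling 1231 were higher and 1064 lower. Of the differences over 16-fold more were rises. By the fitted values 172 of the 996 genes that rose (17.3%) and 78 of the 1261 that fell (6.19%) lay beyond 16-fold. A fitted fold is no bound where a group had no count, as female buds had for 52 of the genes that rose and hermaphrodite buds for 11 of those that fell. With these genes at their bound against 3 counts over the group, 153 of the genes that rose (15.4%) and 71 of those that fell (5.63%) lay beyond 16-fold, and 20 and 1 beyond 256-fold. The median difference was then 3.18-fold for the genes that rose and 3.03-fold for those that fell, and 3.21-fold and 3.04-fold by the fitted values.

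**Figure D2:**
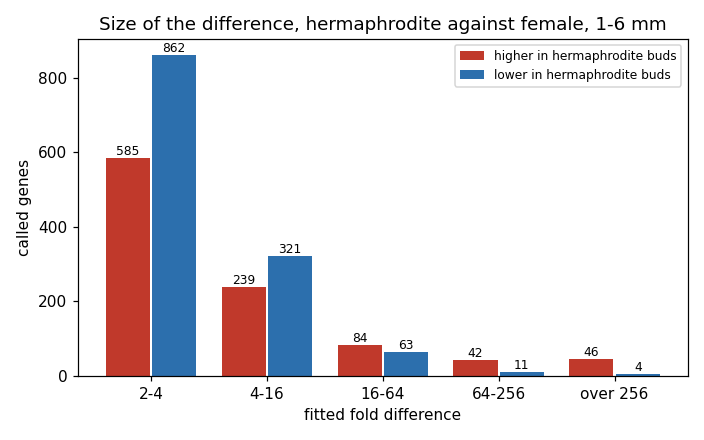
Number of called genes (vertical axis) by the size of the fitted fold difference (horizontal axis), for genes higher and genes lower in hermaphrodite buds. Lower genes outnumber higher ones up to 16-fold (862 against 585 in the first class), and higher genes outnumber lower ones beyond it. Fitted folds of genes without a count in a group are no bounds.

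The floral organ identity genes PI, AP3 and SEP3 were transcribed in both sexes and were 1.45- to 2.14-fold higher in hermaphrodite buds. PI, the B-class partner of AP3 (evm.model.supercontig_26.316, scaffold scf7180000008439, 1269311–1271809), had 129 and 165 CPM in hermaphrodite buds, against 64.1 and 73.6 CPM in female buds. It rose by 1.10 ± 0.17 on the log2 scale (adjusted p = 0.000992), just past the 2-fold limit. The log2 fold change was 1.01 and 1.17 in the replicates taken singly. Without hermaphrodite replicate 2 the value was 0.91, and without female replicate 1 it was 0.999, so that PI then lay under the limit. Each of these 2 fits left a group on 1 platform. Both AP3 gene models lie next to each other on scaffold scf7180000009679. AP3 isoform 1 had 231 and 253 CPM in hermaphrodite buds, against 164 and 139 CPM in female buds, a log2 fold change of 0.68 ± 0.12 (adjusted p = 0.00277). AP3 isoform 2 differed by 0.54 ± 0.10 (adjusted p = 0.00352). SEP3, which joins B-class proteins in stamen and petal complexes, had 170 and 214 CPM in hermaphrodite buds and 91.0 and 115 CPM in female buds (log2 fold change 0.90 ± 0.24, adjusted p = 0.023). For these 4 genes the libraries of the 2 sexes did not overlap, a state that 32.2% of all tested genes showed with hermaphrodite buds higher. With SPL/NZZ as the fifth member, all 5 genes of the identity and initiation list were higher by adjusted p alone, as 11.8% of all tested genes were. Of the 5 genes, 2 were called (40%, against 5.15%). SEP3 lay at 0.90 in each replicate taken singly. It was 1.06 without hermaphrodite replicate 1 and 1.07 without female replicate 2, past the limit, again with a group on 1 platform. The list's median log2 fold change was 0.90, against 0.03 over all tested genes. The study picked the genes of this and the other lists, in part on these libraries.

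SPL/NZZ and the regulators that follow it in the anther were, by contrast, nearly absent from female buds. SPL/NZZ (evm.model.supercontig_12.16, scaffold scf7180000007875, 225482–226874) had 159 and 45 counts in hermaphrodite buds, against 0 and 1 in female buds. The ratio of the summed, scaled counts was 225, with a 95% counting interval of 40.0 to 8939 that leaves out variation between libraries (adjusted p = 8.11e-05). DYT, the first bHLH factor of the tapetum (evm.model.supercontig_871.3, scaffold scf7180000007921, 29044–29962), had 172 and 32 counts in hermaphrodite buds and 2 and 1 in female buds. Its ratio was 75.1 (25.3 to 367, adjusted p = 2.13e-05).

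TDF1, a MYB factor downstream of DYT1 in Arabidopsis (evm.TU.contig_28309.2, scaffold scf7180000008719, 350991–352634), reached 252 and 321 CPM in hermaphrodite buds, against 0 and 0.983 CPM in female buds. It rose by 9.53 ± 0.77 on the log2 scale (adjusted p = 9.87e-05). AMS, a bHLH factor of the tapetum, is represented by 2 neighbouring gene models on scaffold scf7180000007993. AMS isoform 1 (evm.model.supercontig_20.95, 110845–113574) had 509 and 651 CPM in hermaphrodite buds, against 0.0724 and 1.23 CPM in female buds, a rise of 10.09 ± 0.77 (adjusted p = 7.59e-05). AMS isoform 2 (evm.model.supercontig_20.94, 100122–101393) was far lower, with 59 and 20 counts in hermaphrodite buds and 0 and 2 in female buds (ratio 43.6, 11.7 to 366, adjusted p = 0.00235). Reads that align to several places were counted at each, so the models may share reads and the level of each is uncertain. For TDF1 and both AMS models the female counts lay mainly in replicate 2.

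CpMMD1 and CpMS1 had few counts in hermaphrodite and female buds of this size. CpMMD1, whose Arabidopsis counterpart MMD1 acts in male meiocytes, had 11 and 5 counts in hermaphrodite buds and 1 and 0 in female buds. It was called (ratio 17.7, 2.74 to 741, adjusted p = 0.0138) but not without hermaphrodite replicate 2 (adjusted p = 0.0516) or without female replicate 2 (adjusted p = 0.0706). CpMS1, a PHD-finger gene whose Arabidopsis counterpart MS1 acts late in the tapetum, had 2 and 0 counts in hermaphrodite buds and 0 and 0 in female buds, too few for a fold (adjusted p = 0.816). Male buds of the same size had 57.0 and 6.06 CPM of CpMS1, and the larger hermaphrodite buds 174 and 184 CPM. GPAT1, an acyltransferase of the tapetum and pollen in Arabidopsis, had 18.0 and 16.6 CPM in hermaphrodite buds and 13.7 and 10.4 CPM in female buds, and did not pass (adjusted p = 0.66). The glucan endo-1,3-beta-glucosidase-like gene had 16 and 20 counts in hermaphrodite buds and 12 and 17 in female buds, and did not pass (adjusted p = 0.866). Of the 8 tapetum, meiocyte and microspore genes, 5 rose (62.5%, against 5.15% of all tested genes) and none fell. CpMMD1 lost its call with single libraries left out, as given above. The median log2 fold change of the 8 genes was 4.67, or 5.30 without CpMS1, which was at or under 3 counts in both groups. In the larger buds all 8 were called higher in hermaphrodites, as 7.74% of all tested genes were. The study listed CpMS1, CpMMD1, GPAT1 and the glucan endo-1,3-beta-glucosidase-like gene in part for that difference in these libraries.

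**Figure D3:**
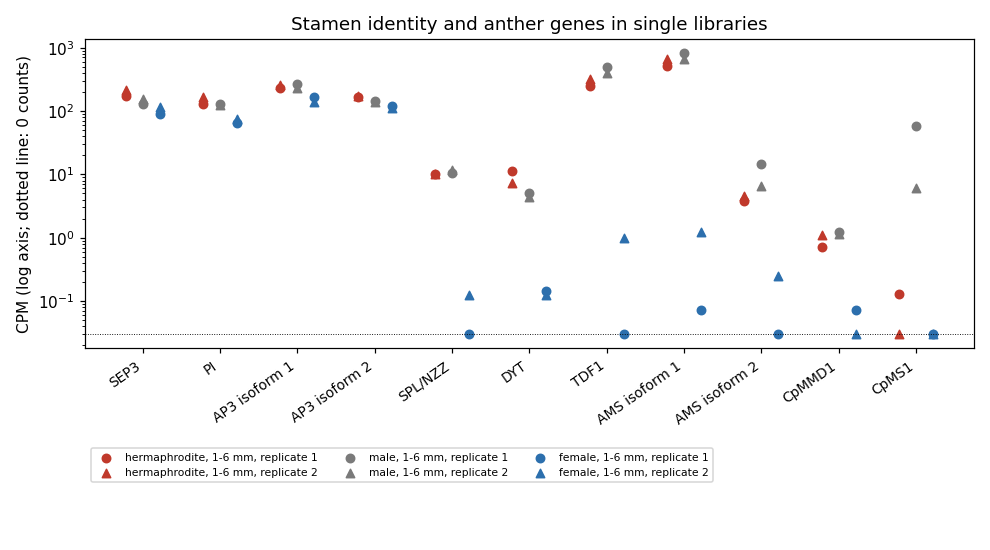
CPM on a log axis of 11 stamen identity and anther genes in each library of hermaphrodite, male and female buds of 1–6 mm, with 1 point per library and 0 counts drawn on the dotted line. Identity genes are present in the libraries of all 3 sexes and lie lower in female than in hermaphrodite libraries. SPL/NZZ, DYT, TDF1 and AMS are high in hermaphrodite and male libraries and near 0 in female libraries. CpMS1 is high in male libraries alone.

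The 7 genes used as stamen markers were SPL/NZZ, DYT, TDF1, both AMS models, CpMS1 and CpMMD1. At least 10 counts were found for 6 and 5 of them in hermaphrodite libraries, against 0 and 1 in female libraries, where 4 and 2 were at 0. CpMS1 was at 0 in hermaphrodite replicate 2. Most of the sum came from TDF1 and AMS isoform 1. The summed level was 788 and 995 CPM in hermaphrodite libraries, against 0.290 and 2.70 CPM in female libraries. Male libraries of the same size had 1409 and 1097 CPM.

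Presence in one sex with near absence in the other was counted without a test. With at least 10 counts in each hermaphrodite library and at most 3 summed over the female libraries, 69 genes were found, of which 31 had no count at all in female buds. The mirror pattern held for 23 genes, and 5 of these had no count in hermaphrodite buds. The hermaphrodite library of replicate 2 is the smallest, so the minimum of 10 counts asks for a higher level in hermaphrodite buds. The gap depended on that minimum, with 101 genes against 72 at 5 counts and 42 against 11 at 20 counts. In the larger buds, whose libraries are not shared, the same pattern held for 44 of the 69 and 8 of the 23. Of the 69 genes, 63 also had at least 10 counts in both male libraries of 1–6 mm. Of the 23 genes, 10 did. The share of all tested genes that did is not given here, so these counts have no background to be read against.

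The 10 largest fitted rises all had at most 45 counts in any female library and at least 107 in any hermaphrodite library, and all 10 had at least 115 counts in each male library. The first of them, evm.model.supercontig_65.77 (scaffold scf7180000008768, 43071–44131), had 743 and 213 counts in hermaphrodite buds, 1370 and 400 in male buds, and 0 and 0 in female buds. It was at least 352-fold higher in hermaphrodite buds, taking 3 counts over the female group as the floor (adjusted p = 0.000463). The most abundant of the 10, evm.model.supercontig_3.24 (scaffold scf7180000008777, 414494–415447), had 66723 and 25463 counts in hermaphrodite buds, 140873 and 52926 in male buds, and 8 and 45 in female buds. It rose by 10.86 on the log2 scale (adjusted p = 0.00263) and averaged 5020 CPM in hermaphrodite buds.

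The 10 largest falls were of genes at lower levels. The first, evm.model.supercontig_41.1 (scaffold scf7180000009344, 870775–870913), had 0 and 0 counts in hermaphrodite buds, against 116 and 90 in female buds, and was at least 62.2-fold lower (adjusted p = 2.18e-05). Male 'AU9' buds had 96 and 53 counts of it. The second, evm.model.supercontig_34.85 (scaffold scf7180000008725, 305546–305806), had 0 and 0 counts in hermaphrodite buds, 0 and 1 in male buds, and 145 and 62 in female buds, and was at least 62.5-fold lower than in female buds (adjusted p = 0.00194). These 2 genes thus differ in the male buds, which share the cultivar of the female buds. Of the 10 largest falls, 4 had at least 10 counts in both male libraries, a count again given without the share over all tested genes.

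The 5 genes that rose with the highest mean log2 CPM over the 4 libraries changed by 1.00 to 1.54 on the log2 scale and averaged 1267 to 1944 CPM in hermaphrodite buds, against 494 to 971 CPM in female buds. The 5 that fell with the highest mean log2 CPM changed by 1.26 to 2.71 and averaged 714 to 1858 CPM in hermaphrodite buds, against 2933 to 4772 CPM in female buds.

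Of 4 genes for receptors of the meristem and anther and their ligand, 1 fell (25%, against 6.52% of all tested genes). RPK2, a leucine-rich repeat receptor kinase needed for anther wall layers and meristem size in Arabidopsis (evm.model.supercontig_14.179, scaffold scf7180000009127, 1429294–1432736), had 73.1 and 58.1 CPM in hermaphrodite buds, against 162 and 135 CPM in female buds. It fell by 1.17 ± 0.17 on the log2 scale (adjusted p = 0.000707). CLV1, the meristem receptor of the CLV3 peptide, had 11.02 and 11.9 CPM in hermaphrodite buds and 6.66 and 7.25 CPM in female buds and passed by adjusted p alone (log2 fold change 0.72 ± 0.19, adjusted p = 0.0194). EMS1/EXS-like and TPD1, the receptor and ligand that specify the tapetum in Arabidopsis, did not pass (adjusted p = 0.886 and 0.887). Their log2 fold changes were -0.09 ± 0.29, which turned positive with library totals as the only scaling, and 0.14 ± 0.45.

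Of 15 regulators of organ growth and patterning, 1 fell (6.67%, against 6.52% of all tested genes), none rose, and their median log2 fold change was -0.37. AIL1, an AP2-type factor related to AINTEGUMENTA (evm.model.supercontig_25.116, scaffold scf7180000009049, 698906–702033), had 4.54 and 2.47 CPM in hermaphrodite buds, against 11.2 and 11.3 CPM in female buds. It fell by 1.64 ± 0.36 (adjusted p = 0.008), and without hermaphrodite replicate 2 the adjusted p was 0.0585. By adjusted p alone 5 of the 15 were lower and 3 higher, where 13.1% and 11.8% of all tested genes were. Among the lower ones was HAIKU2, a receptor kinase of seed growth in Arabidopsis. It had 972 and 612 CPM in hermaphrodite buds and 1657 and 1363 CPM in female buds (log2 fold change -0.93 ± 0.26, adjusted p = 0.0285). PINOID 2, a kinase of auxin transport, was lower by a small step (-0.43 ± 0.10, adjusted p = 0.013). The 3 that were higher by adjusted p alone were AP2, which specifies sepals and petals (0.54 ± 0.15, adjusted p = 0.0304), the gibberellin response repressor DELLA GAIP-B-like (0.66 ± 0.14, adjusted p = 0.00783) and AIL5 (0.39 ± 0.12, adjusted p = 0.0355). Both models of AINTEGUMENTA (ANT), which promotes growth of floral organs, had log2 fold changes below 0 that did not pass (-0.89 ± 0.30, adjusted p = 0.0561, and -0.57 ± 0.19, adjusted p = 0.055). Without hermaphrodite replicate 1, HAIKU2 (-1.30) and the first ANT model (-1.31) were called as well.

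The 9 cell division and chromosome genes all had positive log2 fold changes in hermaphrodite buds, with a median of 0.50. Of these genes 1 rose (11.1%, against 5.15% of all tested genes). NCAPD3, a subunit of the condensin complex (evm.model.supercontig_16.181, scaffold scf7180000007705, 904182–914562), had 37.2 and 30.8 CPM in hermaphrodite buds, against 12.7 and 14.3 CPM in female buds, a rise of 1.34 ± 0.23 (adjusted p = 0.00198). Cyclin-D3-1, an activator of the step into DNA replication, had 49.0 and 56.8 CPM in hermaphrodite buds and 30.8 and 23.7 CPM in female buds (0.95 ± 0.18, adjusted p = 0.00313). TOP2, a topoisomerase that untangles DNA, and histone H3 isoform 1 also passed by adjusted p alone (0.62 ± 0.20, adjusted p = 0.0471, and 0.44 ± 0.14, adjusted p = 0.0489). Cyclin-D3-1 was called without hermaphrodite replicate 1 (1.06) or female replicate 1 (1.15). The H3 models are neighbours, and a read that aligned to both would count at each, so their values may share reads.

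In this group the difference between the sexes also changed with bud size, as it did for some genes of the growth, hormone and cell wall lists. The change was tested as an interaction, the hermaphrodite over female difference at 7–12 mm minus that at 1–6 mm. TOP2 had 40.4 and 30.4 CPM in hermaphrodite and 92.0 and 63.0 CPM in female buds of 7–12 mm, and 72.2 and 73.2 CPM in hermaphrodite and 40.4 and 54.3 CPM in female buds of 1–6 mm. Its log2 fold change was thus -1.13 in the larger and 0.62 in the smaller buds (change -1.75, adjusted p = 0.0181). The kinesin KIFC1 (-1.59, adjusted p = 0.0196), both histone H3 models (-1.60 and -1.79, adjusted p = 0.00815 each) and cyclin-D3-1 (-1.17, adjusted p = 0.0389) changed the same way, so 5 of the 9 were called downward. Without female 1–6 mm replicate 1 none of the 5 was called (adjusted p 0.0556 to 0.11 in edgeR's test). With any other of the 8 libraries left out, 2 to 5 of them were called. Over all tested genes 245 changed upward (1.27%) and 218 downward (1.13%). The study listed the 5 cell division genes for differences between sexes at 7–12 mm in these same libraries, and not at 1–6 mm. That choice favours a change with bud size, so 5 of 9 cannot be weighed against these shares. With all libraries and the replicate block, the 5 cell division genes stayed called (adjusted p 0.000526 to 0.00761 in edgeR's test). The fits that left out a library held no block and left its group on 1 platform. Library and platform cannot be told apart there. The calls over all tested genes changed with the library left out. Their total of 463 genes was 28 without female 1–6 mm replicate 1, 77 without hermaphrodite 1–6 mm replicate 1, 125 without hermaphrodite 1–6 mm replicate 2 and 196 without female 1–6 mm replicate 2. Among the larger buds it was 172 without hermaphrodite replicate 2, 116 without female replicate 1 and 810 without female replicate 2, and with all libraries and the replicate block it was 847.

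**Figure D4:**
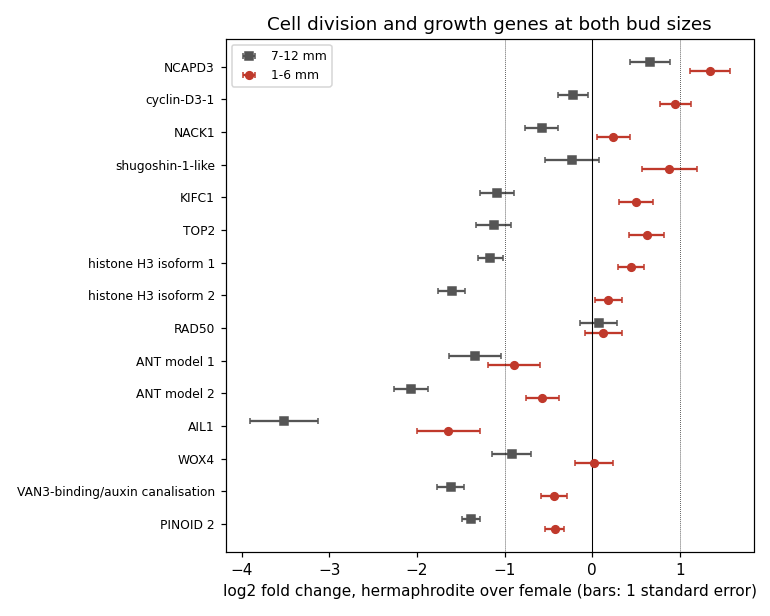
Log2 fold change of hermaphrodite over female buds with 1 SE for 9 cell division and 6 growth genes, at 7–12 mm (squares) and 1–6 mm (circles), with dotted lines at 2-fold. The cell division genes lie right of 0 in the smaller buds, and KIFC1, TOP2 and both histone H3 models lie beyond 2-fold to the left in the larger buds.

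Of the 7 hormone enzymes, 1 rose (14.3%, against 5.15% of all tested genes). Of 5 light signalling and flowering genes, 1 fell (20%, against 6.52%). CYP90B1-like, named for the cytochrome P450 of the first committed step of brassinosteroid synthesis (evm.model.supercontig_6.104, scaffold scf7180000007857, 128485–131090), had 7.78 and 8.08 CPM in hermaphrodite buds, against 1.96 and 2.21 CPM in female buds. It rose by 1.93 ± 0.24 (adjusted p = 0.000313). CYP90C1, which acts later in the same pathway, passed by adjusted p alone with 205 and 191 CPM in hermaphrodite buds and 109 and 119 CPM in female buds (0.80 ± 0.10, adjusted p = 0.000292). The other 5 of the 7 hormone enzymes did not pass. ABA 8-hydroxylase 1, which breaks down abscisic acid, had 21.1 and 17.5 CPM in hermaphrodite buds and 14.8 and 12.4 CPM in female buds (0.52 ± 0.26, adjusted p = 0.187). COP1-like, named for the ubiquitin ligase that represses light responses, had 14.1 and 12.3 CPM in hermaphrodite buds, against 29.4 and 35.1 CPM in female buds, and fell by 1.28 ± 0.19 (adjusted p = 0.000845). Its model is placed on 2 scaffolds. It was the 1 called gene of 5 in the light signalling and flowering list, in which HAT4-like passed by adjusted p alone (0.51 ± 0.14, adjusted p = 0.0202).

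Of 10 cell wall, lectin and glucoside genes, 1 rose (10%, against 5.15% of all tested genes). DUF642, of a family of cell wall proteins (evm.model.supercontig_427.3, scaffold scf7180000007704, 23731–25721), had 127 and 122 CPM in hermaphrodite buds, against 38.9 and 35.02 CPM in female buds, a rise of 1.76 ± 0.14 (adjusted p = 2.41e-05). Expansin-like A2, of a family that loosens cell walls, was lower by adjusted p alone (-0.60 ± 0.14, adjusted p = 0.0122). A pair of genes that were not called passed with the replicate number as a block, and also with DESeq2, with limma-voom, in the 4 libraries alone and after thinning to the smallest total. The lectin-like gene COMITIN had 22.6 and 24.2 CPM in hermaphrodite buds and 13.2 and 6.76 CPM in female buds (1.22 ± 0.44, adjusted p = 0.0725, 0.00929 with the replicate block and up to 0.0348 under the other 4 alternatives, and 0.042 with library totals). Beta-glucosidase 32-like had 2.53 and 3.14 CPM in hermaphrodite buds and 14.0 and 10.9 CPM in female buds (-2.14 ± 0.73, adjusted p = 0.0593, 0.038 with the block and 0.00062 to 0.0422 under the other 4).

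Of 20 further genes of the study's tables, 3 rose (15%, against 5.15% of all tested genes) and 2 fell (10%, against 6.52%). MYB4-like, named for a repressor of phenylpropanoid synthesis (evm.model.supercontig_44.60, scaffold scf7180000007723, 45818–46734), had 0.713 and 0.449 CPM in hermaphrodite buds, 4.16 and 6.34 CPM in male buds, and 4.56 and 4.42 CPM in female buds. It fell by 2.86 ± 0.47 in hermaphrodite buds (adjusted p = 0.00169). The ammonium transporter AMT1-2 fell by 1.04 ± 0.14 (adjusted p = 0.000564), with 97.9 and 107 CPM in hermaphrodite buds and 224 and 198 CPM in female buds. The 3 that rose were tetraspanin-11 related (1.99 ± 0.50, adjusted p = 0.0172), a probable kinase (2.26 ± 0.51, adjusted p = 0.00935) and CYP83B1, an enzyme of indole glucosinolate synthesis in Arabidopsis (1.18 ± 0.33, adjusted p = 0.0311). Each of these 3 lost its call without female replicate 1 (adjusted p = 0.113 for the tetraspanin, 0.0777 for the kinase and 0.108 for CYP83B1), and AMT1-2 then lay under 2-fold (-0.95), as it did without hermaphrodite replicate 1 (-0.98). CYP83B1 lost its call without any 1 of the 4 libraries, the tetraspanin also without hermaphrodite replicate 2 (adjusted p = 0.0979) or female replicate 2 (0.0789), and the kinase without hermaphrodite replicate 1 (0.0899). Over the 83 genes of the tables, 13 rose (15.7%, against 5.15% of all tested genes) and 5 fell (6.02%, against 6.52%), and without hermaphrodite replicate 2 these were 9 and 4. The study picked these genes in part on these libraries.

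Called genes were spread over the assembly, with local runs. On the 55 scaffolds with at least 100 tested genes, 4.80 to 21.4% of the tested genes were called (median 12.9%). Neighbouring tested genes were called in the same direction in 47 runs of 3 or more, 15 of genes that rose and 32 of genes that fell. The longest held 5 genes. On scaffold scf7180000007853 (703528–720081), 5 neighbours fell by 2.20 to 4.89 on the log2 scale, and their summed level was 67.4 and 93.8 CPM in hermaphrodite buds, 104 and 103 CPM in male buds, and 1525 and 1402 CPM in female buds. On scaffold scf7180000007875 (131354–148366), 5 neighbours fell by 3.05 to 6.89, with a sum of 27.2 and 41.3 CPM in hermaphrodite buds, 28.4 and 38.7 CPM in male buds, and 465 and 483 CPM in female buds. In the larger buds all 5 genes of each of these runs were also called lower in hermaphrodites.

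Among the runs that rose, 4 neighbours on scaffold scf7180000008663 (516362–541770) summed to 65.7 and 87.8 CPM in hermaphrodite buds, 267 and 145 CPM in male buds, and 0 and 1.11 CPM in female buds. Another 4, on scaffold scf7180000008696 (156716–194320), summed to 24.0 and 24.5 CPM in hermaphrodite buds, 1.39 and 1.27 CPM in male buds, and 1.01 and 1.35 CPM in female buds. Male buds thus lay with hermaphrodite buds in the first of these runs and with female buds in the second. These runs were chosen after their values were seen. Neighbouring copies of 1 gene could share reads, which was not tested.

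Most genes called at 1–6 mm were also called in the larger buds, whose 4 libraries are separate. At 7–12 mm 1497 genes were higher in hermaphrodites (7.74%) and 1457 lower (7.53%). Of the 996 genes that rose at 1–6 mm, 673 rose at 7–12 mm, 67.6% of the first list and 45.0% of the second, and 1 fell. Of the 1261 that fell at 1–6 mm, 806 fell at 7–12 mm, 63.9% of the first list and 55.3% of the second, and 7 rose. Both sizes share the pairing of sex with cultivar.

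**Figure D5:**
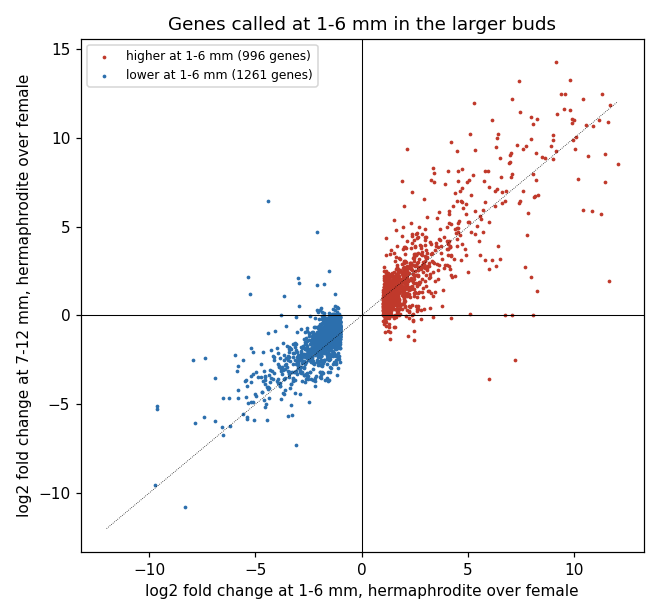
Log2 fold change of hermaphrodite over female buds at 7–12 mm (vertical axis) and at 1–6 mm (horizontal axis) for the 996 and 1261 genes called at 1–6 mm, with 1 point per gene and a dotted line of equality. The sign was the same at both sizes for 953 of the genes higher and 1226 of the genes lower at 1–6 mm.

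Male and female 'AU9' buds of 7–12 mm differ in sex without a difference in cultivar, and share no library with the comparison at 1–6 mm. There 1700 genes were higher in males (8.79%) and 1488 lower (7.69%). Of the 996 genes that rose in hermaphrodite buds of 1–6 mm, 514 were higher in these males, 51.6% of the first list and 30.2% of the second, and 42 were lower. Of the 1261 that fell, 519 were lower in these males, 41.2% of the first list and 34.9% of the second, and 46 were higher. The remaining 440 and 696 genes were not called between these males and females, and bud size differs as well, so the parts of sex and cultivar in them cannot be told apart.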

How the data were processed

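Whole flower buds were extracted with TRIzol and made into stranded mRNA libraries. The authors used FastQC (0.11.5) for read quality, Trimmomatic (0.36) for trimming, HISAT2 (2.0.5) for alignment to the PacBio papaya assembly, SAMtools (1.3.1) for conversion and featureCounts (1.5.2) for counting. The deposited values are whole-number counts of reads per gene, not normalized. Per the file headers, a read aligned to several places counted at each, and 1 strand setting without the read-pair option served all libraries. Gene models hold coding sequence, so untranslated regions were not counted. The deposited coding lengths entered no test.

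R (4.3.3), edgeR (4.0.16), limma (3.58.1) and DESeq2 (1.42.0) were used. The filter filterByExpr (minimum count 10) passed 19339 genes, and TMM factors (the trimmed mean of M-values) scaled the libraries. A robust quasi-likelihood fit (glmQLFTest) held 1 coefficient for each of 6 groups over 12 libraries, with a common biological coefficient of variation of 0.307. The study calls the replicates biological. Were they not from separate plants, p-values would measure technical spread. Totals ran from 4520811 to 16564137 counts a library, and intervals and floors cover counting error only.

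Same-numbered replicates share a sequencing platform. Their deviations from group means had correlations of 0.734 to 0.839 in 15 group pairs, so the number pairs the libraries. The study's methods name no block, which was therefore an alternative. The other alternatives were other low-count filters, other scalings, DESeq2, limma-voom, no fold limit, the 4 libraries alone, thinning to the smallest total, each replicate pair alone and leaving out each library. Leaving out both 1–6 mm libraries of replicate 2 with the most unaligned reads was added after seeing the data. Fits that left out libraries held no block, so a group that lost 1 library was left on 1 platform. The fit was tested on simulated data.

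Named genes are the 83 of the study's tables and, in each direction, the 10 called genes with the largest change and the 5 with the highest mean log2 CPM over the 4 libraries, among those with no overlap between groups. Of the unnamed ones 2 that rose and 2 that fell are given by ID, because no table used here pairs these IDs with names. One of them, evm.model.supercontig_3.24, was picked for its level. Members and lists were chosen with earlier results of these data known. Sequences and gene ontology terms were not analysed here.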

Additional observations from a re-analysis of the deposited data

Results flagged for a closer look

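The difference between hermaphrodite and female buds changed with bud size for 463 genes, by the interaction test of edgeR's fit under the thresholds used throughout. Of the 83 genes of the study's tables, 11 were among them, 2 upward and 9 downward. The study picked these genes in part for differences at 7–12 mm in these libraries, so the 11 are no independent result. ABA 8-hydroxylase 1 changed by 3.50 on the log2 scale, with 87.4 and 80.1 CPM in hermaphrodite and 6.02 and 3.97 CPM in female buds of 7–12 mm, where at 1–6 mm it had not passed. Expansin-like A2 changed by 1.62 and turned its sign, with a log2 fold change of 1.02 at 7–12 mm and -0.60 at 1–6 mm.

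The growth genes ANT (its second model) and VAN3-binding/auxin canalisation changed by -1.50 and -1.18. The cell division genes changed by -1.17 (cyclin-D3-1), -1.59 (KIFC1), -1.75 (TOP2), -1.60 (histone H3 isoform 1) and -1.79 (histone H3 isoform 2). The 1,4-beta-D-xylan synthase and EP1-like/COMITIN changed by -1.48 and -1.33. All 11 kept their direction when any 1 of the 8 libraries was left out, but only 1 of the 11 was still called without female 1–6 mm replicate 1, and 4 without hermaphrodite 1–6 mm replicate 2.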

How the results depend on the processing

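The 2257 genes called at 1–6 mm stayed within 1.5 times that number under every alternative but 1, and were 1847 to 2159 with 1 library left out. Without a fold limit 4814 genes passed at 1–6 mm, 5998 at 7–12 mm and 6367 between males and females of 7–12 mm. With the replicate block 2544 genes were called at 1–6 mm, and the block ended no call of a named gene. The change with bud size gave 847 genes with the replicate block, 28 to 810 with 1 library left out (463 with all), and 65 without both 1–6 mm libraries of replicate 2 with the most unaligned reads. The cause was not tested. With library totals as the only scaling the median log2 fold change of all genes at 1–6 mm moved by 0.12, and 1231 genes were higher and 1064 lower. For the change with size the split was then 201 upward and 342 downward.

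Of 22 called genes named, 15 were called under every alternative that gave them a value. CpMMD1 lost its call with limma-voom (adjusted p = 0.0549). AMT1-2 fell under 2-fold with library totals (-0.92) and after thinning to the smallest total (-0.98). By edgeR's test CYP83B1 lost its call after thinning (adjusted p = 0.0784), and the probable kinase in the 4 libraries alone (adjusted p = 0.0634). No called gene turned its direction, but genes near 0 did. With library totals the log2 fold change was 0.028 for EMS1/EXS-like, 0.11 for CYP90A1, 0.021 for EP1-like/COMITIN and 0.020 for calmodulin. That of WOX4 was -0.0040 with RLE factors and -0.0016 with DESeq2, and that of DUF569 was 0.42 after thinning. Without both libraries named above it was -0.39 for the glucan endo-1,3-beta-glucosidase-like gene and 0.045 for EMS1/EXS-like. With 1 library left out it ran from -0.38 to 1.72 for that glucosidase, -0.40 to 0.28 for EMS1/EXS-like, -0.10 to 0.12 for WOX4, -0.13 to 0.24 for ARF3, -0.26 to 0.39 for RAD50 and -0.039 to 0.023 for CYP90A1. A lone library was assumed to vary like the other groups. The smallest total, 4520811 counts, limits what can be said of genes with few counts.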
